A study of Mus musculus with 2 samples.

Results

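The mouse genes named Srsf and Hnrnp, which encode SR proteins and heterogeneous nuclear ribonucleoproteins (hnRNPs), were described at the level of genes and transcripts in gastrocnemius muscle. They were found by symbol, Srsf followed by a number or Hnrnp followed by letters or numbers, which gave 31 of the 55536 GENCODE M21 genes in the gene tables: 11 Srsf genes and 20 Hnrnp genes. Total RNA was measured in 2 libraries of whole calf muscle from B6CASTF1/J mice, an F1 hybrid strain. Both were males aged 10 days, with no treatment named, and each library started from 300 ng of RNA spiked with ERCC control RNAs. They form 1 group, with replicates 2 and 1, so levels, shares and their spread are described and no conditions are compared. The labels give different animal numbers but 1 donor code, and the spread between the libraries may therefore be partly technical.

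SR proteins and hnRNPs bind pre-mRNA and steer which exons are spliced in, SR proteins mostly as activators through their arginine-serine domains and hnRNPs often as repressors. Many of their genes are known to limit their own output by splicing: the protein favours an exon or intron of its own transcript that brings a premature stop codon, and the product is degraded by nonsense-mediated decay (NMD) or held in the nucleus. A stop codon that lies well upstream of the last exon junction is the usual trigger of NMD, and an exon that introduces one is called a poison exon.

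GENCODE lists 282 transcripts for the 31 genes. Of these 135 are protein-coding, 75 are of the retained intron class, 35 are of the NMD class and 37 are processed transcripts, which have no annotated reading frame. The last 3 classes, 147 transcripts, are called noncoding here, although NMD transcripts do hold a reading frame. Of the 35 NMD transcripts, 11 from 7 genes carry their stop codon in an exon that no protein-coding transcript of the gene has. Another 12, from 7 genes, use the stop codon of a protein-coding transcript, and the remaining 12, also from 7 genes, stop elsewhere in an exon that overlaps a coding one. The stretches below are shown because they end the reading frames of NMD transcripts whose levels are described further on. Each runs from the start of the stop exon to the stop codon, which is in capitals, read 5′ to 3′ on the gene's strand from the GENCODE M21 transcripts and placed on mm10.
Srsf3-201, chr17:29039454-29039487, plus strand: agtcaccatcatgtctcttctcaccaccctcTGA
Srsf7-203, chr17:80205054-80205081, minus strand: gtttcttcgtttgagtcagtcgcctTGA
Srsf11-210, chr3:158024209-158024231, minus strand: ttcttttccctggttcagccTGA
Srsf6-201, chr2:162932815-162932966, plus strand: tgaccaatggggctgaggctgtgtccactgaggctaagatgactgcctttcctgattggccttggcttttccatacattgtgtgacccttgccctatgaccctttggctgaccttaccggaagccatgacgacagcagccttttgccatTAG
Hnrnpl-213, chr7:28817335-28817393, plus strand: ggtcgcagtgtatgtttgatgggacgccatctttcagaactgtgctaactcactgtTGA
Hnrnpll-203, chr17:80044976-80045022, minus strand: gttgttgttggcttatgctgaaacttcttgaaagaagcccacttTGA
Hnrnpu-206, chr1:178325281-178325313, minus strand: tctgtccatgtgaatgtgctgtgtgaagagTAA
Hnrnpa1-203, chr15:103243959-103244014, plus strand: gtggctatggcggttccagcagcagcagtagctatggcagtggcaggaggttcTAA

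The stop exon of Srsf3-201 is 456 bases long, is exon 4 of that transcript and is absent from every protein-coding Srsf3 transcript. Those of Srsf7-203, Srsf11-210, Hnrnpl-213 and Hnrnpll-203, at 460, 109, 70 and 83 bases, are likewise absent from the coding transcripts of their genes. The stretch shown for Srsf6-201, stop codon included, is also part of Srsf6-202, a transcript annotated as coding that was listed at 0 TPM in both libraries, but the 268-base exon as a whole is not. In Srsf3, Srsf6 and Srsf7 the stop exon lies inside an intron that a retained intron transcript of the same gene holds whole: the intron is 2150 bases long in Srsf3-204, 1283 in Srsf6-204 and 874 in Srsf7-206. Hnrnpa1-203 ends at the stop codon of a coding transcript, and its last exon junction lies 90 bases further downstream.

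Of the 75 retained intron transcripts, 28 from 15 genes hold at least 1 intron of a coding transcript whole, and the other 47 do not. The 5′ edges of introns from the SR genes just named, and from Srsf5, are shown as the last 10 exon bases and the first 20 intron bases, with the first 6 intron bases in capitals.
Srsf3-204, chr17:29038615-29038644, plus strand: ctcggcgcagGTACTTgagagagcaccttt
Srsf5-212, chr12:80947856-80947885, plus strand: cagctggcagGTTTGTtgaaatacagtttt
Srsf6-204, chr2:162932133-162932162, plus strand: ggaagccgcaGTGAGTccttacccccgcgc
Srsf7-206, chr17:80205242-80205271, minus strand: gaagaagcagGTATTTaattaatgaaggaa

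Expected counts totalled 38160786 for replicate 2 and 38874862 for replicate 1, of which the 31 genes took 81214 and 90855. The level that 3 counts give a transcript 1000 bases in effective length was 0.0924 TPM in replicate 2, against 0.0925 TPM in replicate 1. TPM, a read-based measure of relative abundance, is the deposited level per transcript length, so it can be compared between genes. All 5 muscle markers looked up were high, led by the skeletal actin gene Acta1 at 24109.5 and 22684.2 TPM in replicates 2 and 1. Endothelial, fibroblast, macrophage, Schwann and erythroid markers were present too, 3 of 3 in each list at 1 TPM or more in both libraries. In whole tissue, fewer cells of a type and less RNA per cell cannot be told apart. No source used here says whether reads were counted by strand, so members that overlap a gene on the other strand are uncertain: Hnrnpab with Phykpl, Hnrnph3 with Rufy2, Hnrnpk with Rmi1, Hnrnpu with Cox20, and Srsf2 with Mettl23 and Mfsd11. Hnrnpm shares 1169 bases with March2 on the same strand, a gene at 33.0 and 31.2 TPM in replicates 2 and 1.

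Of the 31 genes, 30 reached 1 TPM in both libraries. The share of all protein-coding genes that did so is not given here. This count and those of the other lists are therefore not read as traits of the genes listed. Hnrnpk on chromosome 13 (58391142 to 58403343), whose protein binds C-rich RNA, was the highest, at 183 and 214 TPM in replicates 2 and 1, and ranked 290 of 21951 protein-coding genes by mean TPM. Next came Hnrnpa2b1 on chromosome 6, which encodes a core hnRNP protein also known for RNA transport, at 125.8 and 139.8 TPM in replicates 2 and 1. Hnrnpa3, a close relative of it, had 92.1 and 119 TPM. Hnrnpl, whose protein binds CA-rich RNA, had 96.9 and 104 TPM. The ranges of Hnrnpa3 and Hnrnpl overlapped, so their order is not settled, while Hnrnpk and Hnrnpa2b1 each stood clear of the next gene.

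A middle set of Hnrnp genes lay between 30.7 and 84.8 TPM in either library. It held Hnrnpf and Hnrnph1, whose proteins bind runs of G, Hnrnpu, whose protein associates with the nuclear matrix, Hnrnpa1, a shuttling splicing repressor, and Hnrnpc, which binds U tracts. Hnrnpab, Hnrnpd, Hnrnpdl, Hnrnpul1, Hnrnpa0 and Hnrnpm were the other 6. Hnrnph2 on the X chromosome had 24.2 and 25.1 TPM in replicates 2 and 1, and Hnrnpul2 had 16.9 and 17.95 TPM. The lowest 3 were Hnrnpr at 16.1 and 17.4 TPM, Hnrnpll, a relative of Hnrnpl known from lymphocyte splicing, at 8.73 and 9.76 TPM, and Hnrnph3 at 5.90 and 6.76 TPM. Of the 19 neighbouring pairs in the order of levels, 10 did not overlap between libraries.

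Among the SR genes Srsf5 on chromosome 12 (80945504 to 80950507) was the highest, at 51.4 TPM in replicate 2 and 66.7 TPM in replicate 1, ranking 934. Srsf2 had 46.0 and 52.3 TPM, and its range overlapped that of Srsf5. Srsf1, the founding member of the family, had 38.5 and 38.1 TPM, and Srsf3, the smallest SR protein, had 32.2 and 38.9 TPM. Srsf6, Srsf11, Srsf4 and Srsf7 followed, between 16.2 and 31.3 TPM in either library. The lowest were Srsf10, known as a splicing repressor when dephosphorylated, at 15.4 and 20.1 TPM, and Srsf9 at 8.35 and 9.05 TPM. Srsf12 had 0.10 TPM, or 4 counts, in replicate 2 and none in replicate 1, so its level was at the limit of detection. Of the 10 neighbouring pairs, 5 did not overlap.

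The 20 Hnrnp genes summed to 1134 and 1275 TPM in replicates 2 and 1, and the 11 Srsf genes to 277 and 322 TPM. The Hnrnp sum was 4.10 and 3.96 times the Srsf sum. The second transcript table, in the layout of kallisto, gave higher gene TPM for all 31 genes, by a median of 1.48 times, close to the 1.47 times of all protein-coding genes. The order at the top was the same there, with Hnrnpk and Hnrnpa2b1 first and second of the Hnrnp genes and Srsf5 and Srsf2 of the Srsf genes.

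**Figure D1:**
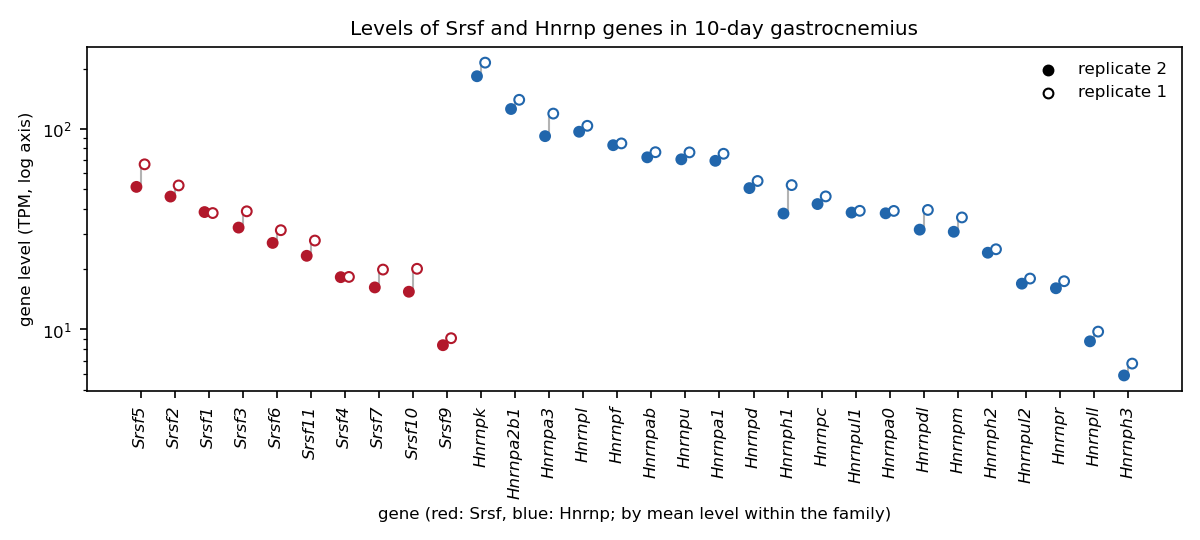
Gene levels in TPM on a log axis for the 30 genes at 1 TPM or more in both libraries, Srsf in red and Hnrnp in blue; filled points are replicate 2 and open points replicate 1. Hnrnpk stands highest, at 183 and 214 TPM in replicates 2 and 1, and most open points lie above their filled partners.

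Noncoding transcripts held 24.6% ± 2.04 (SD, n = 2) of the summed transcript TPM of both families, from the first transcript table, which has the column layout of RSEM. The share was 37.7% ± 4.11 for the Srsf genes and 21.3% ± 1.44 for the Hnrnp genes. In the Srsf genes it was spread over the 3 classes, with 14.5% ± 2.22 in retained intron transcripts, 12.04% ± 0.129 in NMD transcripts and 11.2% ± 2.02 in processed transcripts. In the Hnrnp genes NMD transcripts led, at 11.2% ± 1.04, against 7.78% ± 1.79 for retained introns and 2.37% ± 0.6998 for processed transcripts. Of the 147 noncoding transcripts, 54 reached 1 TPM in both libraries and 26 were listed at 0 in both. In 29 genes the transcript with the highest TPM was a coding one, and the exceptions were Hnrnpu and Srsf3.

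Per gene, 5 members (Hnrnpf, Hnrnpab, Hnrnpa0, Hnrnph2 and Srsf12) have no annotated noncoding transcript. Another 3, Srsf9, Hnrnpll and Hnrnph3, have a mean under 10 TPM, which leaves 23 for the comparison with other genes. Their median noncoding share was 28.6%, at 25.1% in replicate 2 and 34.3% in replicate 1. Over the 4185 protein-coding genes with at least 1 annotated noncoding transcript and a mean of 10 TPM or more, the members included, the median was 8.55%. A share of 20% or more in both libraries was found in 14 of 23 members (60.9%), against 28.1% of those genes. With a limit of 10% the members numbered 18 of 23, against 42.1% of the genes, and with 50% they numbered 3, against 7.89%. The members differ from other genes in annotation too, with a median of 5 noncoding transcripts each, against 3. Among genes with at least 3 of them, the median share was 32.9% in 17 members and 14.6% in 2554 genes, and 12 of the 17 passed 20%, against 36.8% of the genes.

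**Figure D2:**
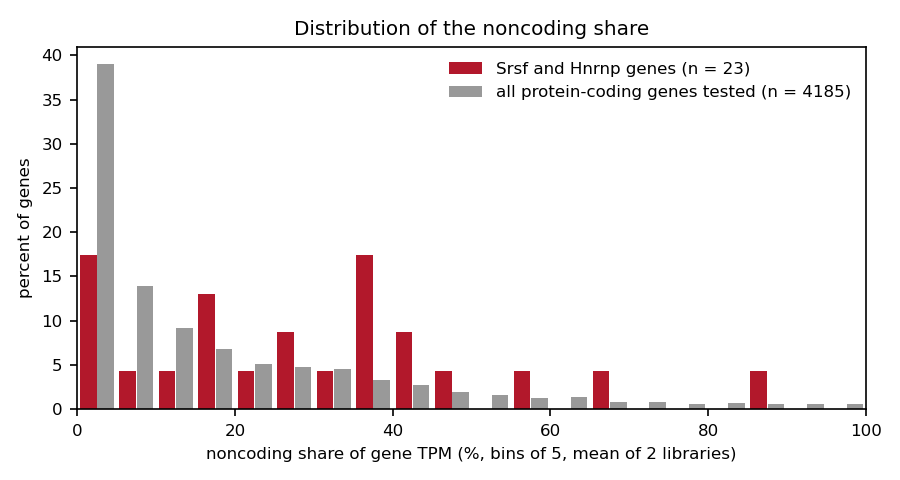
Percent of genes by noncoding share of gene TPM, in bins of 5 percentage points, for 23 Srsf and Hnrnp genes (red, left bar of each pair) and the 4185 protein-coding genes that include them (grey). A share under 5% was found in 4 members and in 1632 of all genes.

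The classes differed in how far the members stood from other genes. NMD transcripts held 10% or more of the TPM in both libraries in 9 of 23 members, against 8.86% of the 4185 genes. Retained intron transcripts did so in 6 of 23 members, against 17.9% of the genes, which is closer to the background. The second table gave 7 of 23 against 10.8% for NMD and 7 of 23 against 21.1% for retained introns. A gene with no annotated transcript of a class cannot pass for it, so these counts depend on annotation too. Among genes with at least 3 noncoding transcripts, the first table gave 7 of 17 members and 322 of 2554 genes for NMD. For retained introns it gave 6 of 17 members and 598 of 2554 genes.

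Hnrnpu on chromosome 1 (178321108 to 178337797) had the highest noncoding share of all members, 87.6% in replicate 2 and 87.9% in replicate 1. Of the 4185 genes 56 were higher. Most of it lay in Hnrnpu-206, the NMD transcript of 17 exons and 2844 bases shown above, with 42.1 and 43.5 TPM or 59.7% and 56.8% of the gene. The single coding transcript, Hnrnpu-201, is 7640 bases long and had 8.74 and 9.28 TPM. Both libraries gave nearly the same split, and the deposited posterior standard deviation of the count of Hnrnpu-206 was 37.5 of 3753 counts in replicate 2 and 39.6 of 3868 in replicate 1. The second table put the noncoding share at 84.7% and 85.9%, but less of it in NMD transcripts. These held 76.8% and 71.9% of the gene in replicates 2 and 1 of the first table, against 51.1% and 47.0% in the second. Another NMD transcript, Hnrnpu-209, held 17.1% and 15.1% in the first table and was listed at 0 in both libraries of the second. As a share of expected counts, which do not correct for the longer coding transcript, noncoding transcripts held 66.06% and 66.05%.

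Srsf3 followed, at 67.4% and 67.3% in replicates 2 and 1. Its processed transcript Srsf3-209, 518 bases long, held 37.9% and 32.9%, and its poison exon transcript Srsf3-201 held 19.97% and 17.6%, at 6.43 and 6.84 TPM. The main coding transcript Srsf3-202 had 10.5 and 12.7 TPM. In the second table Srsf3-209 held only 4.20% and 4.86%, while Srsf3-207, another processed transcript, had 14.6 and 19.7 TPM after being listed at 0 in the first table. Which processed transcript carried the reads is therefore unsettled, whereas Srsf3-201 was found in both tables, with 11.9 and 12.6 TPM in the second.

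Srsf11 had 52.5% and 62.6% in replicates 2 and 1, spread over many retained intron transcripts. The leading one, Srsf11-208, held 13.8% and 16.7%. In Srsf6 the share was 50.4% and 44.1%, of which 42.0% and 33.3% of the gene lay in Srsf6-201, whose stop exon is shown above, at 11.4 and 10.4 TPM. The coding Srsf6-203 had 13.4 and 17.5 TPM. Srsf1 had 36.6% and 36.0%, with retained introns at 24.9% and 25.0% and NMD at 11.7% and 11.1%, and its leading noncoding transcript Srsf1-203 held 12.6% and 19.0%. The second table put Srsf1 lower, at 25.95% and 21.4%, with retained introns at 12.01% and 7.81% and Srsf1-203 at 1.99% and 2.93%. As a share of expected counts instead of TPM, its noncoding transcripts held 12.4% and 11.6%. Srsf10 had 26.2% and 45.1%, all in processed transcripts, its only annotated noncoding class, and the widest spread of any member. Srsf10-207 led, at 18.5% and 23.4%. By expected counts the noncoding share of Srsf10 was lower, at 6.12% and 15.8%. In the first table the ranges of Srsf6 and Srsf1 did not overlap with each other, while that of Srsf10 covered the range of Srsf1.

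Hnrnph1 had 40.3% and 49.4%, all in processed transcripts, its only annotated noncoding class. None was dominant, since the leading one, Hnrnph1-212, held 8.16% and 11.1%. Some of the others, such as Hnrnph1-204 and Hnrnph1-205, hold whole introns of coding transcripts. Hnrnpa1 had 39.0% and 42.1%, all of it NMD, its only annotated noncoding class. Its transcript Hnrnpa1-203 had 24.5 and 26.5 TPM, beside the coding Hnrnpa1-202 at 38.0 and 40.1 TPM. In Hnrnpdl and Hnrnpd, related genes for proteins that bind AU-rich elements, NMD transcripts also led. Hnrnpdl had 43.0% and 34.3%, with Hnrnpdl-205 at 32.7% and 23.0%. Hnrnpd had 36.8% and 37.7%, with Hnrnpd-208 at 23.1% and 26.2%.

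Further down, Srsf5 had 29.2% and 36.6% and Srsf2 22.4% and 34.8%, while Hnrnpk, the highest gene by level, had 25.1% and 29.5%. Their leading noncoding transcripts were Srsf5-206, at 16.9% and 21.98%, Srsf2-204, an NMD transcript at 12.7% and 24.1%, and Hnrnpk-215, a retained intron transcript at 14.6% and 17.97%. Hnrnpl and Hnrnpa2b1 both averaged 16.7%, led by Hnrnpl-206 at 3.65% and 6.14% and by Hnrnpa2b1-209 at 7.90% and 5.85%. In the second table Srsf2-204 was listed at 0 in replicate 2 and held 26.6% in replicate 1, Hnrnpk-215 at 0 and 2.42%, and Hnrnpa2b1-209 at 0 in both. Low shares were found in Hnrnpul2, Hnrnpul1, Hnrnpa3 and Hnrnpc, at means between 0.480% and 2.62%. The highest and lowest shares of the Hnrnp genes thus differed far more than the libraries did for any member.

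**Figure D3:**
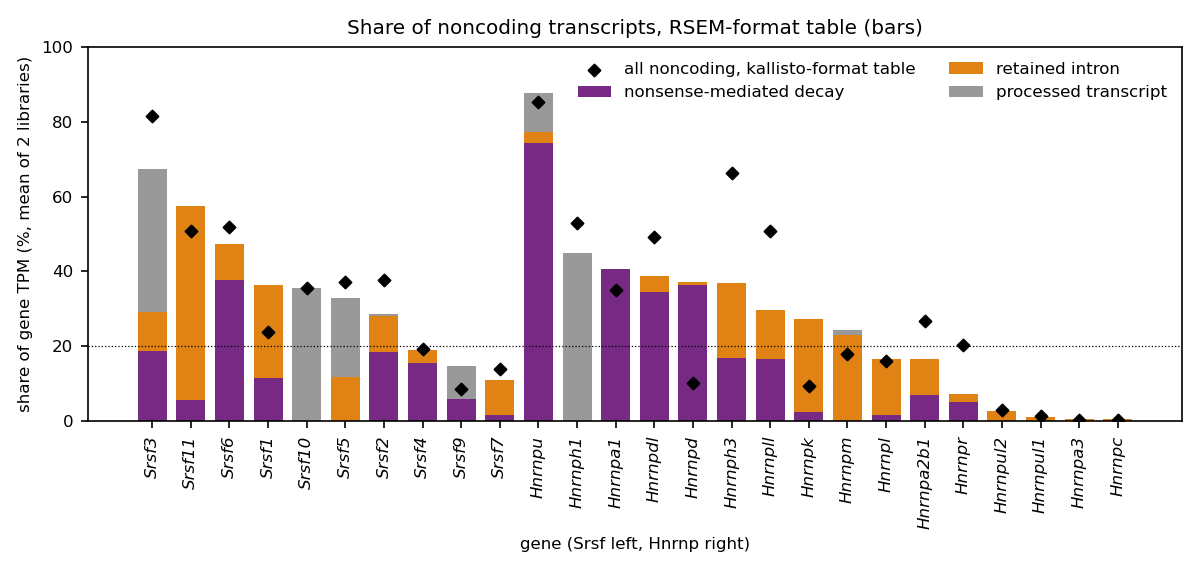
Mean share of gene TPM in NMD (purple), retained intron (orange) and processed transcripts (grey) over 2 libraries in the first table, stacked, for 26 genes with noncoding transcripts; diamonds are the summed noncoding share in the second table and the dotted line marks 20%. Hnrnpu and Srsf3 stand highest in both tables, and NMD transcripts make up most of the bars of Hnrnpu, Srsf6, Hnrnpa1, Hnrnpdl and Hnrnpd.

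The NMD transcripts sorted by their stop codons differed in level. Those that stop in an exon absent from coding transcripts, the poison exon type, summed to 15.3 and 14.2 TPM in replicates 2 and 1, of which the Srsf genes made 11.9 and 11.3 TPM. Within it Srsf3-201 was the highest. Srsf6-201, at 11.35 and 10.4 TPM in replicates 2 and 1, was higher but is not counted in this type. It shares its stop codon with a transcript annotated as coding, which was listed at 0 TPM in both libraries. The sum of the poison exon type therefore depends on that annotation. Srsf7-203 reached 0.350 and 0.190 TPM, and Srsf11-210 had 1.36 TPM in replicate 2 and was listed at 0 in replicate 1. In the second table Srsf11-210 was at 0 in both libraries. Srsf11-206, which has the same stop exon, had 0.280 and 0.410 TPM in the first table and 2.87 and 2.58 TPM in the second. Hnrnpl-213 had 2.07 and 1.15 TPM, and Hnrnpll-203 had 1.29 and 1.78 TPM. NMD transcripts that share the stop codon of a coding transcript summed to 75.5 and 85.1 TPM, led by Hnrnpa1-203. Those that stop elsewhere summed to 78.1 and 72.4 TPM, led by Hnrnpu-206. In the second table the 3 sums were 26.6, 87.4 and 81.2 TPM in replicate 2 and 30.9, 107 and 86.2 TPM in replicate 1, so the poison exon type was lowest there too.

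The 2 tables, both made from these libraries, split several genes differently. Over the 23 members the median difference, first minus second, was -0.289 percentage points, with 11 shares larger in the first table and 12 in the second. In 7 of the 23 the difference was 10 points or more. How many of the 4185 genes differed as much is not given here, so this is not read as a trait of the members. The furthest apart of all members was Hnrnph3, with 42.0% and 31.8% in replicates 2 and 1 of the first table and 69.0% and 63.8% in the second. Hnrnpd had 36.8% and 37.7% in the first and 8.89% and 11.7% in the second, where Hnrnpd-208 fell to 5.12% and 8.22%. Hnrnpll had 27.2% and 32.1%, against 50.4% and 51.1%, and Hnrnpk had 25.1% and 29.5%, against 6.64% and 11.9%. For Srsf3 the second table was the higher one, at 80.3% and 82.7%. A share of 20% or more in both libraries was found in 12 of 23 members by the second table, against 33.4% of the 4185 genes, and 11 members passed in both tables. By expected counts, 9 of 23 passed, against 13.1%, and the median share was 15.2%, against 3.40%.

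**Figure D4:**
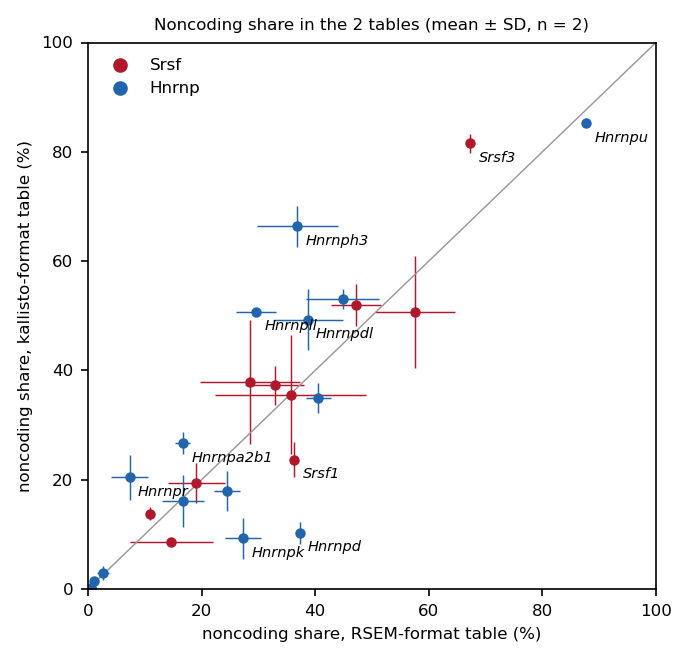
Noncoding share of each gene in the first (horizontal) and second (vertical) transcript table, as mean with SD bars over 2 libraries, Srsf in red and Hnrnp in blue; the line marks equal shares and the labelled genes differ by 10 points or more or exceed 60%. Hnrnpu and Srsf3 are high in both, whereas Hnrnpd and Hnrnpk lie far below the line and Hnrnph3 and Hnrnpll far above it.

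Between the libraries the genes differed little in total counts. The log2 ratio, replicate 2 over replicate 1, was computed from rounded expected counts after TMM scaling, with an exact binomial 95% interval that covers counting error only. The threshold was a level 25% higher in replicate 2 or, the inverse fold, 20% lower. None of the 30 members with a mean of 100 counts or more passed it, against 9.66% of 10962 protein-coding genes, of which 5.59% were higher and 4.07% lower in replicate 2. The direction was nonetheless uneven: 26 of 30 ratios lay below 0, against 44.1% of the genes, with a median of -0.06, against 0.02. For Srsf genes the median was -0.11, with 8 of 10 below 0, and for Hnrnp genes it was -0.05, with 18 of 20 below 0.

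Hnrnpdl had the lowest ratio, -0.32, just inside the threshold, at 31.5 and 39.5 TPM in replicates 2 and 1. Srsf5 and Hnrnph1 had -0.31 each, and Hnrnph1 had 37.9 and 52.5 TPM in replicates 2 and 1. At the other end were Srsf4 at 0.07, with 18.2 and 18.3 TPM, Hnrnpa0 at 0.03, with 38.0 and 39.0 TPM, and Srsf2 at 0.01. The leading noncoding transcript of Srsf4, Srsf4-204, held 7.61% and 12.6% of that gene. Scaling by library totals or by spike-in totals each put 3 members past the threshold, lower in replicate 2, as these scalings shift all ratios down. The median over all protein-coding genes was then -0.021 and -0.0094. How many of those genes passed the threshold under these scalings is not given here.

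The difference was larger in retained intron and processed transcripts than in the rest. Summed over the members, retained intron transcripts had 3889 expected counts in replicate 2 and 6128 in replicate 1, a log2 ratio of -0.59 (interval -0.64 to -0.53). Processed transcripts had 1441 and 2316 counts, a ratio of -0.61 (-0.71 to -0.52). NMD transcripts had 8518 and 8906 counts, a ratio of 0.01 (-0.04 to 0.05), and coding transcripts had 67366 and 73505, a ratio of -0.06 (-0.07 to -0.04). NMD and coding transcripts thus differed little, while the other 2 classes were lower in replicate 2. Summed over the 4185 genes above, members included, the ratios were -0.12 for retained intron, 0.09 for processed, 0.08 for NMD and 0.02 for coding transcripts. Genes with many counts weigh most in such sums. Medians over single genes with a mean of 20 or more counts of the class were -0.39, -0.04, -0.01 and 0.03, in the same order. For the members' sums the second table gave -0.49, -0.41, -0.002 and -0.03 for retained intron, processed, NMD and coding transcripts. Coding counts of single genes were lower past the threshold in 2 of 30 members, Hnrnpdl and Hnrnph3, against 8.33% of 12924 genes. Class sums were examined after the data had been seen.

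Gene by gene, retained intron counts were lower in replicate 2 in 18 of the 19 members with a mean of 20 such counts, against 74.6% of 3580 genes, and past the threshold in 15 (78.9%), against 53.9% of those genes. The median ratio was -0.59 in the members and -0.39 in those genes, so retained intron counts were lower in replicate 2 in genes in general. Srsf5 had 472 such counts in replicate 2 and 780 in replicate 1, a ratio of -0.65. Srsf11 had 525 and 868 (-0.66), Srsf3 279 and 471 (-0.68) and Hnrnpl 403 and 705 (-0.74). Srsf4 had the lowest ratio, -1.64, on 28.6 and 94.4 counts, and shares its strand with A930004J17Rik, at 96 and 175 counts. Srsf1 was the exception in the first table, at 188 and 195 counts and a ratio of 0.01. Of the 19 ratios, 16 lay below 0 in the second table, and Srsf1 (0.59), Hnrnpr (0.49) and Hnrnpll (0.01) lay above it. As a share of gene TPM, retained introns were lower in replicate 2 in all 17 members with a mean share of 1% or more, against 71.6% of 2655 genes, and in the second table in 15 of 17, against 68.7%. The NMD share was lower in replicate 2 in 4 of 15 members, against 50.7% of 949 genes, and in 6 of 16, against 52.4%, in the second table. The summed noncoding share was lower there in 16 of 21 members, against 63.5% of 3598 genes, and in 15 of 21, against 62.7%, in the second table.

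**Figure D5:**
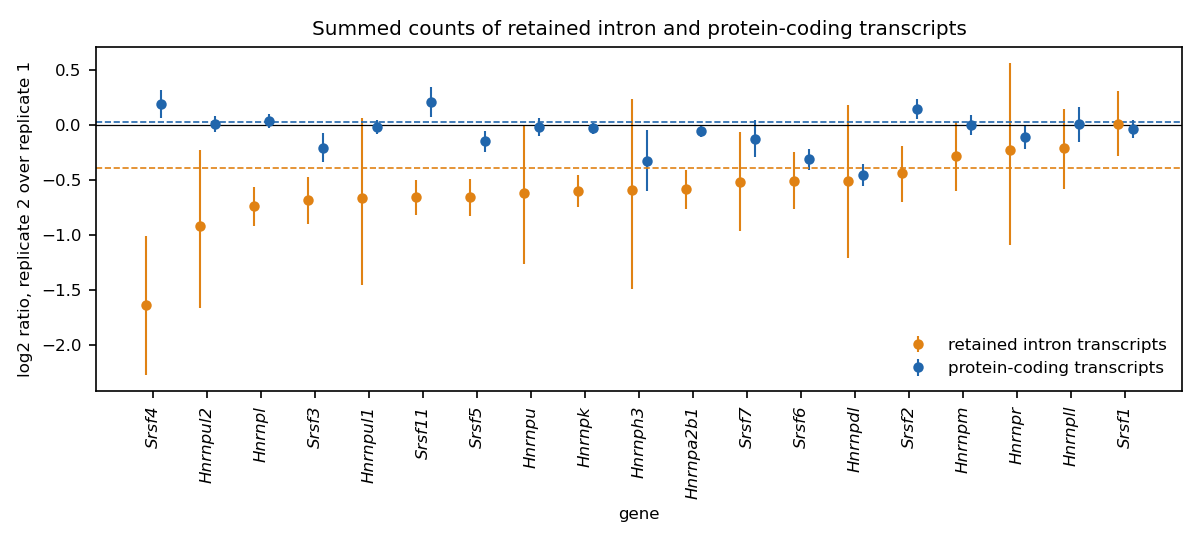
Log2 ratio, replicate 2 over replicate 1, of summed expected counts of retained intron (orange) and protein-coding (blue) transcripts for 19 genes, with exact binomial 95% intervals; dashed lines are the medians over all genes, -0.39 for retained intron and 0.03 for coding transcripts. In the first table, plotted here, retained intron ratios lie below 0 in 18 of 19 genes, Srsf1 excepted, and most coding ratios lie closer to 0, Hnrnpdl being the lowest at -0.45.

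Processed transcript counts were lower in replicate 2 in all 6 members with 20 or more, against 52.4% of 1626 genes, and past the threshold in 5 of them, against 32.4%. Of the 6, 5 were lower in the second table too, where Hnrnph1 at -0.32 lay inside the threshold and Srsf9 stood at 4.23, against -2.02 in the first table on 10.7 and 47.2 counts. Srsf10 had 73.9 and 207 such counts in replicates 2 and 1, a ratio of -1.41, Hnrnph1 671 and 1077 (-0.61) and Srsf5 237 and 387 (-0.64). NMD counts showed no common direction: of 16 members 2, Srsf2 and Hnrnpll, were lower past the threshold, against 32.0% of 1451 genes, and 5 were higher past it, against 27.2%, namely Hnrnpk, Hnrnpl, Hnrnpr, Hnrnph3 and Hnrnpa2b1, while the second table put the first 3 of these below 0. Srsf6 stood at 577 and 529 NMD counts, a ratio of 0.20, and Srsf3 at 521 and 553, a ratio of -0.02. Among other genes looked up, those past the threshold included Malat1, a nuclear noncoding RNA, with 724 and 1168 TPM in replicates 2 and 1, and all 3 erythroid markers, higher in replicate 2 past the threshold, with summed levels of 1436 and 811 TPM in replicates 2 and 1. The macrophage marker Adgre1 was past it too, at 2.52 and 1.69 TPM, a ratio of 0.34, while Csf1r and Cd68, of the same list, stood at -0.03 and 0.04. Neat1, another nuclear RNA, had 16.6 and 17.9 TPM. Their part in the retained intron difference was not tested.

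The partners of these proteins were read from lists. The 9 SR protein kinases, which phosphorylate the arginine-serine domains, all reached 1 TPM in both libraries, at a median of 13.7 TPM. Highest were Srpk3, the muscle-specific member, at 37.8 and 37.7 TPM in replicates 2 and 1, and Dyrk1a at 37.9 and 35.7 TPM, and lowest was Clk2 at 7.99 and 9.14 TPM. Their median noncoding share was 50.8% over 8 genes, 6 of which had 20% or more in both libraries, against 28.1% of the 4185 genes. Clk1, named for its ratio, was the only kinase past the threshold, at 11.9 and 19.7 TPM in replicates 2 and 1, with 91.1% and 83.9% in noncoding transcripts.

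All 14 SR-related splicing genes were found, with a median level of 29.8 TPM and a median noncoding share of 24.9% over 10 genes. Srrm2, a spliceosome scaffold, had 68.4 and 75.5 TPM in replicates 2 and 1, Snrnp70, of a small nuclear ribonucleoprotein, 38.7 and 52.3 TPM, and Luc7l, the lowest, 6.63 and 7.86 TPM. All 13 other hnRNP-type genes were found too, with a median level of 32.6 TPM and a median share of 16.6% over 12 genes. Pcbp2, a C-rich RNA binder like Hnrnpk, had 199.7 and 202.8 TPM, and Ptbp2, the lowest, had 10.4 and 11.0 TPM. In each of these lists 1 gene was lower in replicate 2 past the threshold, Snrnp70 at -0.41 and Cirbp at -0.35, against 4.07% of 10962 protein-coding genes.

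The machinery that degrades NMD transcripts was present, with 15 of 15 listed genes at 1 TPM or more in both libraries and a median of 7.88 TPM. The share of all genes at that level is not given here. Eif4a3 and Rbm8a, core proteins of the exon junction complex, were highest, at 28.6 and 31.6 TPM and at 22.5 and 24.3 TPM in replicates 2 and 1. Smg8 was lowest, at 3.71 and 3.59 TPM, and Smg9, at -0.37, was the gene lower in replicate 2 past the threshold. Of the 3 nuclear import receptors, Tnpo1, which carries hnRNP A1, had 27.6 and 24.8 TPM, Tnpo3, which carries SR proteins, 12.6 and 14.4 TPM, and Tnpo2 12.6 and 11.8 TPM, and none passed the threshold.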

How the data were processed

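Per the file headers and the notes beside them, the deposited tables of genes and transcripts follow the column names of RSEM and come from alignments to the mm10 transcriptome under GENCODE M21. They give expected counts and TPM and, for transcripts, each one's percent of its gene, all deposited by the authors. They also hold credibility bounds of the TPM, a signal per feature given by the authors and not used here, and the posterior standard deviation of the count. A second deposited transcript table, with the columns of kallisto, gives estimated counts and TPM from FASTQ files. Effective lengths imply a fragment length of 100 in the first table and mean fragment lengths of 355 (replicate 2) and 347 (replicate 1) in the second, which affects short transcripts most. No aligner, program version or strand setting was found in these sources (not given in the sources used here). Estimates split reads between overlapping transcripts, and near-identical copies such as the processed pseudogenes of Hnrnpa1 make the split less certain.

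The members, lists and thresholds were chosen with earlier results of these data known. Noncoding shares are percent of summed transcript TPM outside the protein-coding biotype. Ratios used expected counts rounded to whole numbers and edgeR 4.0.16 TMM factors (R 4.3.3) over genes with a mean of 10 counts or more. They had a prior count of 0.5 and Clopper-Pearson intervals (scipy 1.17.1). This step was checked on simulated counts with counting error only. The check therefore does not cover variation between animals or the assignment of reads between transcripts. With 1 group of 2 libraries no test was run. Levels are given per library or as mean ± SD. Genes named with values were the 4 highest and 3 lowest by TPM in each family, the 5 with the highest noncoding share, the 3 highest and 3 lowest ratios, the 5 most different between tables, and the 2 highest and the lowest of each partner list; other names with values were chosen after these were seen. The values of 1 gene that this rule names are not reported here. Alternatives covered the table, the estimate (posterior mean), the unit, the biotypes, filters, thresholds, scaling (library totals, spike-ins, DESeq2 1.42.0 size factors) and each library alone. Protein sequences were not used here.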

Additional observations from a re-analysis of the deposited data

How the results depend on the processing

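The median noncoding share of 28.6% was 25.1% and 34.3% with each library alone, 15.2% as a share of expected counts and 19.0% with retained intron and NMD transcripts only. The count of 14 members at 20% or more was 14 and 15 with each library alone, 9 by expected counts and 3 with a limit of 50%. The Srsf sum, 277 to 322 TPM with each library alone, had a mean of 299.6 TPM in the first table, 448 TPM in the second and 682 TPM after rescaling over nuclear protein-coding genes only. The Hnrnp sum, 1134 to 1275 TPM with each library alone, was 1761 TPM in the second table and 2742 TPM after that rescaling. The median difference between the tables, -0.289 points, was -0.370 and -0.0808 with each library alone. Members past the fold threshold and lower in replicate 2 numbered 0, or 3 under library totals and 3 under spike-in totals. The share of all genes past it under those scalings is not given here. Members past it and higher numbered 0, or 1 (Srsf12, on 4 counts) with no filter. Medians of the members' ratios under library totals, spike-in totals, DESeq2 size factors and the second table were -0.11, -0.09, -0.06 and -0.03, all below 0. For all protein-coding genes they were -0.021, -0.0094, 0.022 and 0.036 in the same order. Per gene, 18 of 26 shares moved by more than their SD in the second table, 20 by expected counts, 6 with retained intron and NMD transcripts only and 5 by posterior mean TPM. The comparison among genes with 3 or more noncoding transcripts was added after the data had been seen. No paired analysis was possible because there is 1 group. Depth limits Srsf12 and the transcripts under 1 TPM, and assignment between overlapping transcripts limits the rest.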
